A study of Mus musculus with 12 samples.

Results

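Transcripts of 10 genes were followed across 4 ages of mouse choroid plexus, out of 52459 gene symbols in the expression table. They comprise 5 genes for secreted proteins (Clu, Cst3, Ptgds, Sostdc1 and 1500015O10Rik), 2 genes for membrane precursors that are cut to release peptides (App and Itm2b), and 3 genes used as markers of the epithelium (Calml4, Tmem72 and Cab39l). The genes were taken by symbol from a fixed list, and all 10 symbols were found. The tissue was dissected from B6 mice at 4 stages: in the embryo (E12.5), at birth (P0), in the young animal 14 days later (P14) and in the adult of 6 months (A6m), with 3 libraries per age and no other treatment or allele named for these groups. The labels speak of 3 or 4 independent specimens per datapoint and give no sex, ventricle, sequencing batch or number of animals per specimen. Values are TPM, an abundance corrected for transcript length that sums to the same total in each library. TPM can therefore be set side by side between genes, but it keeps no read counts, and the depth behind each value is unknown.

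The choroid plexus is a folded sheet of epithelium over a stroma of vessels, fibroblasts and macrophages, and it secretes cerebrospinal fluid into the brain ventricles. Its epithelial cells also release carrier proteins, protease inhibitors and chaperones into that fluid, among them clusterin, cystatin C and prostaglandin D synthase. These proteins bind lipids, small hydrophobic molecules or amyloid peptides, and the amyloid precursor App and the related substrate Itm2b are cut by proteases that work at the cell surface and in endosomes.

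A few properties of the libraries bear on these genes. Ttr, the transthyretin gene that defines this epithelium, took 1.12% to 2.10% of TPM in the E12.5 libraries and 13.7% to 16.9% in all later ones. Mitochondrially encoded transcripts took 11.2% to 17.7% at E12.5 and 31.3% to 34.0% at A6m. As the total is fixed, the typical tested gene drifted down, by a median log2 difference of -0.27 into P0, -0.41 from there into P14, -0.04 from P14 to A6m and -0.71 between E12.5 and A6m, and median-of-ratios scaling (one factor per library that centres the typical gene) brought all of these medians to between -0.02 and 0.00. E12.5 replicate 1 stood apart, with 9.31% of its TPM on the small-RNA feature Mir6236, and it held the lowest E12.5 value for 8 of the 10 genes, while replicate 3 held the highest for 8. Xist, the RNA that coats the silenced X chromosome of female cells, was at 148 to 155 TPM at A6m and at most 0.808 TPM at P0 and P14. Comparisons of A6m with P0 or P14 therefore also set libraries with Xist against libraries without it, and the 2 differences cannot be told apart. At E12.5 it was at 139, 0.389 and 89.5 TPM in replicates 1, 2 and 3. In dissected tissue, fewer cells of a type and less RNA per cell cannot be told apart.

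The stretches just upstream of the start sites are shown for 5 of the genes because they lie at the extremes of what follows: Ptgds, Tmem72 and 1500015O10Rik rose most steeply from E12.5 to P0, Itm2b rose least among the genes called, and Cab39l gained most on its paralog among the 3 ratios to a paralog examined. RefSeq promoter sequences (GRCm38.p6) were found for 8 of the 10 genes, with 1500015O10Rik listed there as Ecrg4. Clu and Sostdc1 were not matched. Each stretch runs 5′ to 3′ on the strand of the gene, ends before the first annotated exon, and has CG dinucleotides in capitals.
1500015O10Rik, chr1:43730352-43730601, plus strand: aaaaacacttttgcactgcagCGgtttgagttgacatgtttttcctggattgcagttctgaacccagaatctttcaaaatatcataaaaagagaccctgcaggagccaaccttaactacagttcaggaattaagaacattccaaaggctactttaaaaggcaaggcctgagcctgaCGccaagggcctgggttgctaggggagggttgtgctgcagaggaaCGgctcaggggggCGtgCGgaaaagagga
Ptgds, chr2:25469843-25469999, minus strand: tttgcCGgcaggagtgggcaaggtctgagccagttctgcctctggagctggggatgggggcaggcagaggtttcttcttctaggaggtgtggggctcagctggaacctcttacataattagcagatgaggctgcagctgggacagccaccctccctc
Tmem72, chr6:116716914-116717008, minus strand: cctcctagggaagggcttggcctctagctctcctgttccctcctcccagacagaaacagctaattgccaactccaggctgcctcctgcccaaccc
Cab39l, chr14:59440885-59440962, plus strand: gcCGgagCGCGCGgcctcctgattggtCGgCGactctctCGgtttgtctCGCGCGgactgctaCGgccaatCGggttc
Itm2b, chr14:73385290-73385539, minus strand: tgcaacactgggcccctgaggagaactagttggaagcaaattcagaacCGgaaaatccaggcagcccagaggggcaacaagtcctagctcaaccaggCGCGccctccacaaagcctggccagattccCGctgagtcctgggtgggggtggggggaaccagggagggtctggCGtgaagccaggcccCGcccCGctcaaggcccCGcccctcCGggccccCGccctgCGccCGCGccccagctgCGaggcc
The Ptgds stretch lies upstream of most of its transcript models and inside the first intron of a longer one in GENCODE M21, and the other 4 lie outside their own genes.

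Over the whole window of 250 bases before the start, of which parts overlapping annotated exons are not printed, CG density differed widely. Ptgds had 2 CG, 1500015O10Rik 5 and Tmem72 6, against a median of 6 over 32851 promoters. Cst3 and Calml4 had 8 each. Itm2b had 14, App 23 and Cab39l 29 at its first start, with 1 at a second start inside the gene. The letters TAATCC (bound by Otx factors, present in 6.25% of all windows), TAAACA (forkhead factors, 12%) and TATAAA (12.4%) were searched on both strands and were in none of the windows matched. CCAAT (33.8% of all windows) was in the first Cab39l window only. A match or its absence describes these letters in this window and says nothing of binding.

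Between E12.5 and birth 9 of the 10 genes rose and 0 fell, with a median log2 difference of 2.60. The rises ran from 1.60-fold (Itm2b) to 34.1-fold (Ptgds) in mean TPM, and App did not pass the test. In the same comparison 18.6% of all 17422 tested genes were called higher and 43.7% lower by limma at a Benjamini-Hochberg adjusted p under 0.05 over all tested genes, the rule used for every call here. With scaling 10 of the 10 genes rose, against 29% of all genes, and 0 fell, against 31%. From P0 to P14 5 rose (Clu, Cst3, 1500015O10Rik, App and Cab39l) and 0 fell, where 5.33% of all genes were called higher and 53.5% lower. With scaling 8 rose, against 22.7%, and 0 fell, against 19.8%, so that the 2 scales disagree for Sostdc1, Itm2b and Calml4. From P14 to A6m 3 rose (Clu, Cst3 and App) and 1 fell (Calml4), where 8.78% of genes were called higher and 12.1% lower. With scaling 3 rose, against 15.2%, and 2 fell (Calml4 and Sostdc1), against 14%.

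**Figure D1:**
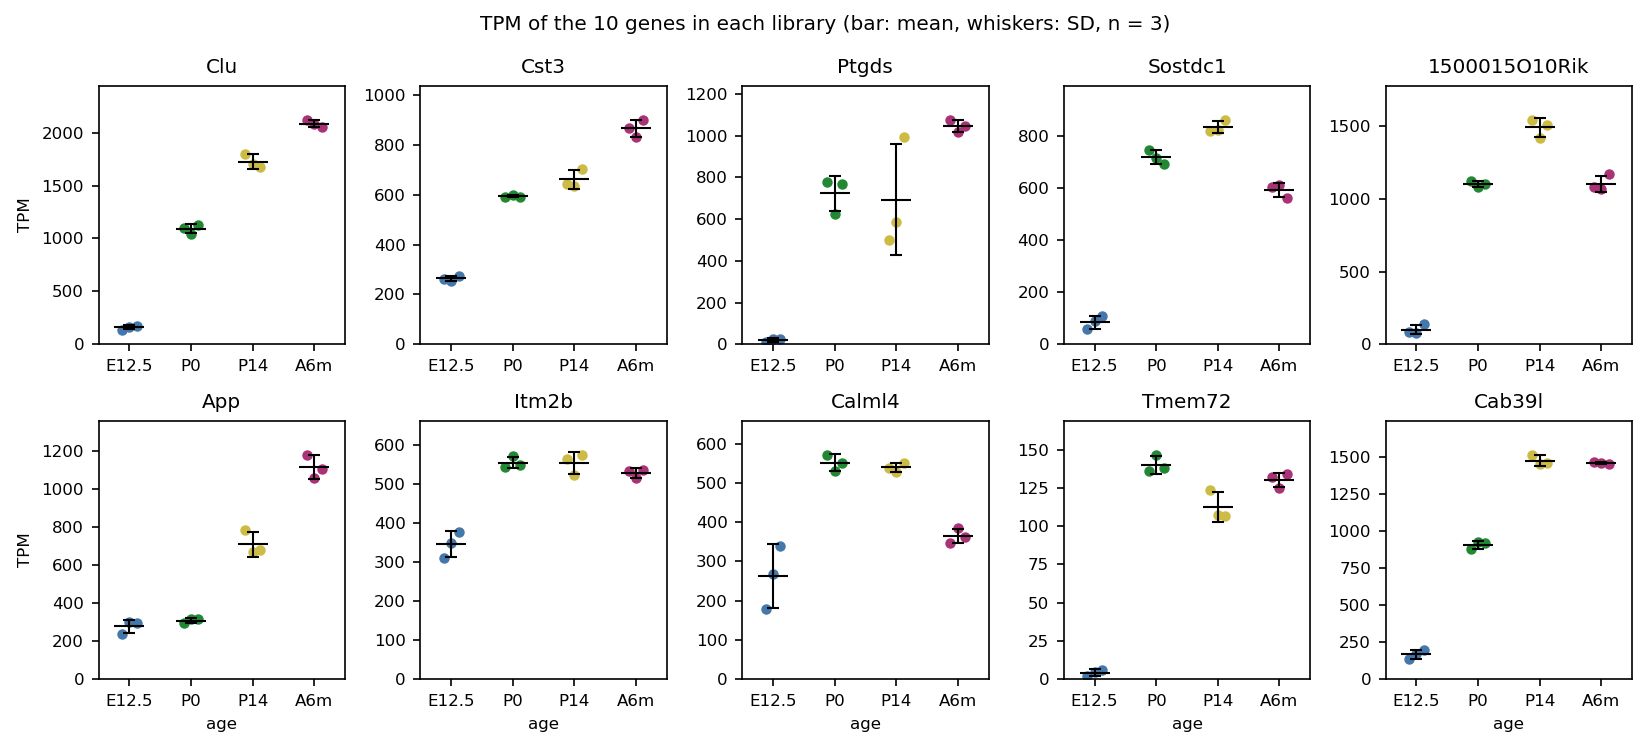
TPM of the 10 genes (linear axes from 0, a separate scale per gene) in each of the 3 libraries at E12.5, P0, P14 and A6m, with points for libraries, bars for means and whiskers for SD. Every E12.5 library lies below every later library for 9 genes, and for App the E12.5 and P0 libraries overlap.

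Across the full span all 10 genes were higher at A6m than at E12.5 on both scales. As deposited, 15.2% of genes were called higher in this comparison and 62% lower, and with scaling 35.4% and 35.8%. The median log2 difference of the 10 genes was 2.98, against -0.71 over all genes. The moderated F-test of limma over the 4 ages also called all 10, where it called 85.1% of all genes. Together the 10 genes took 0.169% ± 0.0259, 0.669% ± 0.0118, 0.879% ± 0.0333 and 0.929% ± 0.0136 of TPM over the 4 ages in order (mean ± SD, n = 3). The 5 genes for secreted proteins took 0.0630% of TPM at E12.5 and 0.570% at A6m.

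**Figure D2:**
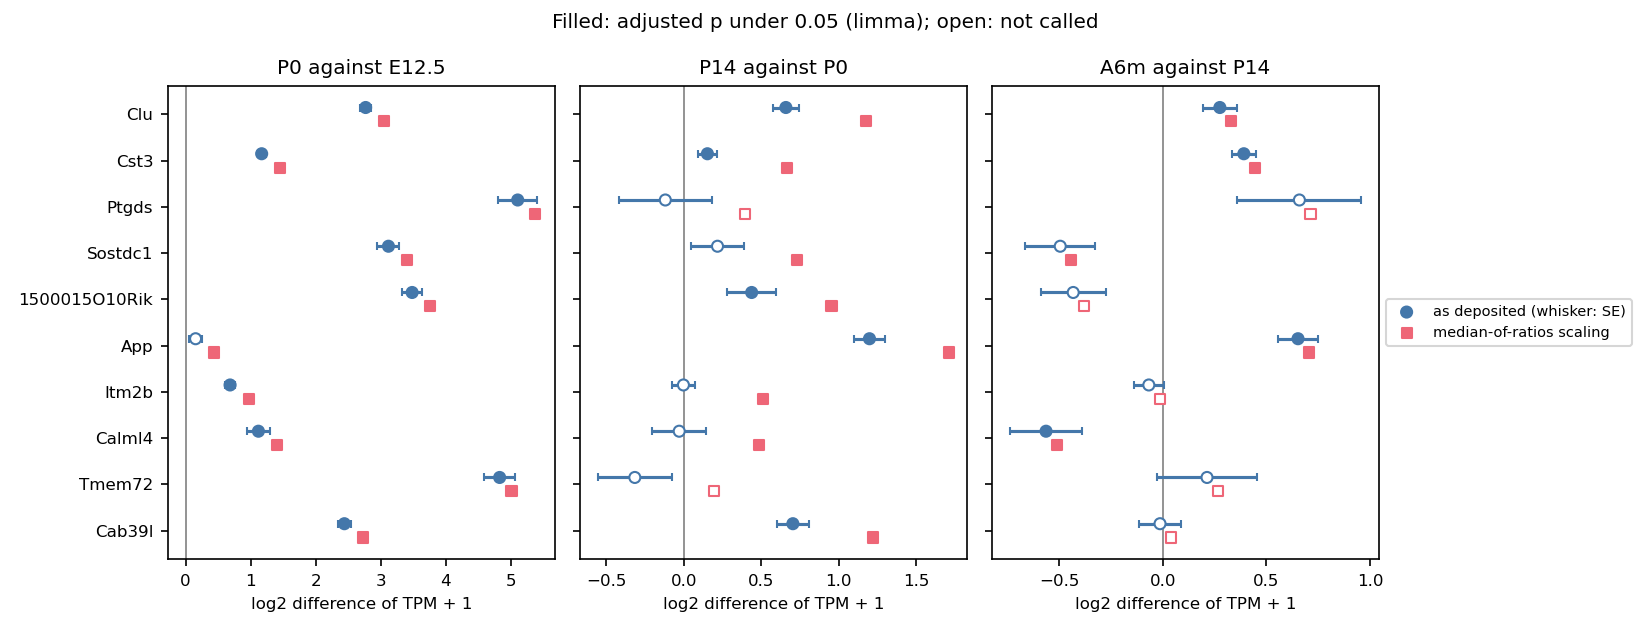
Differences of mean log2(TPM + 1) between successive ages for the 10 genes (horizontal axis, log2 units, a separate scale per panel), as deposited (circles, whiskers for SE) and with median-of-ratios scaling (squares), filled where the adjusted p of limma was under 0.05. The first panel has 9 filled circles, the second 5 and the third 4, and squares of the second panel lie to the right of the circles.

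Clu encodes clusterin, an extracellular chaperone that binds misfolded proteins and travels with lipoproteins. Its gene lies on chr14:65968483-65981547. It was at 138, 167 and 176 TPM in E12.5 replicates 1, 2 and 3, at 1102, 1046 and 1131 TPM at P0, at 1802, 1701 and 1671 TPM at P14 and at 2123, 2078 and 2058 TPM at A6m. No libraries of different ages overlapped, and each later age lay above the one before. The log2 difference was 2.77 ± 0.08 (SE) from E12.5 to P0 (adjusted p = 2.73e-09), 0.66 ± 0.08 from P0 to P14 (adjusted p = 9.58e-05) and 0.27 ± 0.08 from P14 to A6m (adjusted p = 0.039). The last call was lost when any single P0, P14 or A6m library was left out (9 of 12 such fits, highest adjusted p 0.118). At A6m Clu was the most abundant of the 10 genes and ranked 23 among all genes in each of the 3 libraries, from rank 695 to 759 at E12.5.

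Cst3 encodes cystatin C, a secreted inhibitor of cysteine proteases (chr2:148871722-148875692). It was at 261, 255 and 275 TPM at E12.5, at 591, 600.2 and 593 TPM at P0, at 642, 637 and 705 TPM at P14 and at 867, 832 and 901 TPM at A6m. The ages again did not overlap, and the steps were smaller than those of Clu. Cst3 rose by 1.17 ± 0.06 on the log2 scale into P0 (adjusted p = 5.44e-08) and by 0.39 ± 0.06 from P14 to A6m (adjusted p = 0.000904). The step from P0 to P14, 0.15 ± 0.06 (adjusted p = 0.046), lost its call without any single P0, P14 or A6m library, with an adjusted p of up to 0.178. With scaling that step was 0.67 (adjusted p = 9.81e-05).

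Ptgds encodes lipocalin-type prostaglandin D synthase, which makes prostaglandin D2 and, once secreted, carries small hydrophobic molecules (chr2:25466709-25470046). It was at 11.6, 26.0 and 26.0 TPM at E12.5, at 776, 626 and 768 TPM at P0, at 498, 586 and 994 TPM at P14 and at 1076, 1015 and 1047 TPM at A6m. The rise from E12.5 separated all libraries, whereas the P14 libraries spread over and beyond the range of P0. The log2 difference into P0 was 5.10 ± 0.30 (adjusted p = 1.44e-07), or 34.1-fold in mean TPM, the largest of the 10. Neither later step passed the test, at -0.12 ± 0.30 from P0 to P14 (adjusted p = 0.752) and 0.66 ± 0.30 from P14 to A6m (adjusted p = 0.154), and leaving out P14 replicate 3 gave 0.95 for the latter (adjusted p = 0.0479). Leaving out E12.5 replicate 1 also brought a call there (adjusted p = 0.0441). The first step was 5.36 with scaling. Meningeal fibroblasts are another known source of this transcript. Of 10 tested fibroblast and meninges markers, 5 rose and 5 fell into P0, on both scales. Of all genes 18.6% were called higher and 43.7% lower there, and 29% and 31% with scaling. The risers, named after their values were seen, were Slc6a13, Aldh1a2, Dcn, Pdgfra and Ogn. Slc6a13 rose from 2.01 to 20.8 TPM (2.86 in log2 units, adjusted p = 8.82e-06) and Aldh1a2 from 2.71 to 20.3 TPM (2.45 in log2 units, adjusted p = 6.48e-05), both with Ptgds. Among the P14 replicates 1, 2 and 3 Slc6a13 was at 1.17, 2.10 and 4.18 TPM and Aldh1a2 at 1.58, 2.29 and 5.12 TPM, in the same order as Ptgds. The other risers did not follow that order. In the same replicates Dcn was at 115, 108 and 134 TPM, Ogn at 206, 199 and 207 TPM and Pdgfra at 34.5, 31.0 and 30.8 TPM. At A6m, where Ptgds was highest, the means of Slc6a13 and Aldh1a2 were 0.773 and 1.64 TPM. The sum over the whole list, most of it collagens and Lum at E12.5, was 1148 to 1495 TPM at E12.5, 850.3 to 899 TPM at P0, 468 to 526 TPM at P14 and 264 to 337 TPM at A6m. The part of these cells in the Ptgds values was not tested.

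Sostdc1 encodes a secreted antagonist of BMP and Wnt signals (chr12:36314139-36318452). It was at 57.5, 88.1 and 108 TPM at E12.5, at 746, 715 and 692 TPM at P0, at 818, 822 and 861 TPM at P14 and at 602, 610.4 and 562 TPM at A6m. Its libraries were highest at P14, and those of A6m lay below every P0 library. Sostdc1 rose by 3.12 ± 0.17 on the log2 scale into P0 (adjusted p = 8.81e-08). The step down from P14 to A6m was -0.50 ± 0.17 (adjusted p = 0.0624), and it was called with scaling (-0.44, adjusted p = 0.0157), without E12.5 replicate 1 (adjusted p = 0.000907) or without E12.5 replicate 3 (adjusted p = 0.0177). With only the 6 libraries compared it was called as well (adjusted p = 0.00163). All ages share one spread in the fit, and relative to its mean that of Sostdc1 was widest at E12.5, with an SD of 29.9% of the mean there and of 2.86% to 4.39% at the later ages.

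1500015O10Rik, also named Ecrg4, encodes augurin, a secreted precursor of peptides (chr1:43730602-43742578). It was at 85.7, 79.8 and 136 TPM at E12.5, at 1122, 1079 and 1102 TPM at P0, at 1545, 1420.5 and 1509.8 TPM at P14 and at 1078, 1068 and 1169 TPM at A6m. The P14 libraries were the highest, and those of P0 and A6m overlapped. It rose by 3.48 ± 0.16 on the log2 scale into P0 (adjusted p = 2.8e-08) and by 0.44 ± 0.16 from P0 to P14 (adjusted p = 0.0328), a call lost without any single P0 or P14 library (highest adjusted p 0.0836). The step from P14 to A6m was -0.43 ± 0.16 (adjusted p = 0.0772), and it was called without E12.5 replicate 2 (adjusted p = 0.0456) or replicate 3 (adjusted p = 0.000609). It was also called with only the 6 libraries compared (adjusted p = 0.0046), with quantile normalization (0.0381) and without the 10 most abundant genes (0.0409). With median-of-ratios scaling it was not (-0.38, adjusted p = 0.0567). An antisense model, Gm29155, overlaps it and reached 5.43 TPM. The labels do not say whether counting used strand, so reads of the pair may not be separated.

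App encodes the amyloid precursor protein, a membrane protein from which secretases release a large soluble part and amyloid beta (chr16:84949685-85173766). It was at 238, 299.5 and 296 TPM at E12.5, at 295, 315 and 314 TPM at P0, at 784, 666 and 677 TPM at P14 and at 1180.3, 1056 and 1102.5 TPM at A6m. The libraries of E12.5 and P0 overlapped, and both later ages stood clear above them. App was the only one of the 10 that did not pass the test into P0, at 0.15 ± 0.10 on the log2 scale (adjusted p = 0.19), and with scaling it did (0.44, adjusted p = 0.000102). It then rose by 1.20 ± 0.10 from P0 to P14 (adjusted p = 6.03e-06), the largest step of the 10 genes at that interval, and by 0.65 ± 0.10 from P14 to A6m (adjusted p = 0.000829). Aplp2, its widely expressed homolog, was at 281 ± 33.4, 451 ± 20.4, 373 and 372 TPM at the 4 ages. The ratio of App to Aplp2 within a library was 0.990, 0.682, 1.90 and 2.99 over the 4 ages in order (geometric means), and it differed between ages by an exact permutation test over all 369600 assignments of the libraries (p = 6.49e-05, the smallest they can give, and 9.74e-05 adjusted over the 3 ratios tested). The neuronal homolog Aplp1 rose from 71.6 ± 12.3 TPM at E12.5 to 212 TPM at A6m (1.56 in log2 units, adjusted p = 1.25e-07).

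Itm2b encodes BRI2, a membrane protein that binds App and whose end is cut off by furin-like proteases (chr14:73362226-73385289). It was at 310.5, 349 and 377 TPM at E12.5, at 544, 570.5 and 548 TPM at P0, at 563, 522 and 575 TPM at P14 and at 533, 514 and 536 TPM at A6m. It was the highest of the 10 genes at E12.5, and P14 overlapped with both P0 and A6m, while P0 lay just above A6m. Itm2b rose by 0.68 ± 0.07 on the log2 scale into P0 (adjusted p = 1.13e-05). From P0 to P14 the deposited values gave -0.0031 (adjusted p = 0.976), and scaling, which lifts most genes at this step, gave 0.51 (adjusted p = 1.79e-05). Its homolog Itm2c was far lower, at 72.5 ± 4.14 TPM at E12.5 and 96.9 TPM at A6m. The ratio of Itm2b to Itm2c was 4.76, 6.22, 6.13 and 5.45 at the 4 ages, a narrow range that still differed between ages (exact permutation test, p = 0.0013, and 0.0013 adjusted over the 3 ratios).

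Calml4 encodes a calmodulin-like protein, known as a light chain of the adhesion complex between microvilli in gut and kidney (chr9:62858080-62875921). It was at 177, 268 and 339.7 TPM at E12.5, at 572, 529 and 551 TPM at P0, at 538, 528 and 551 TPM at P14 and at 348, 385 and 361 TPM at A6m. It was highest at P0 and P14, whose libraries overlapped, and the A6m libraries lay just above the E12.5 range. Calml4 rose by 1.12 ± 0.18 on the log2 scale into P0 (adjusted p = 0.000213) and fell by 0.56 from P14 to A6m (SE 0.18, adjusted p = 0.0433). The fall lost its call without E12.5 replicate 2 or any single P0, P14 or A6m library (10 of 12 fits, highest adjusted p 0.122), and it was called with scaling (-0.51, adjusted p = 0.0121). A6m stood above E12.5 by 0.53 (adjusted p = 0.0175), a value of 0.27 without E12.5 replicate 1, of 0.74 without E12.5 replicate 3 and of 1.38 with scaling. That call was lost without A6m replicate 2 (adjusted p = 0.0536) and with only the 6 libraries of these ages (adjusted p = 0.074).

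Tmem72 encodes a membrane protein whose transcript marks choroid plexus and kidney epithelium (chr6:116679063-116716913). It was at 2.00, 4.72 and 6.16 TPM at E12.5, at 136, 147 and 138 TPM at P0, at 123, 107 and 106 TPM at P14 and at 132, 124.9 and 134 TPM at A6m. Nearly all of its course lay before birth, since the 3 later ages spanned a narrow band. Tmem72 rose by 4.83 ± 0.24 on the log2 scale into P0 (adjusted p = 4.93e-08), or 32.6-fold in mean TPM. At the low E12.5 level the added pseudocount of 1 shrinks this difference. The later steps were -0.32 ± 0.24 (adjusted p = 0.278) and 0.21 ± 0.24 (adjusted p = 0.607). The first of them was called without E12.5 replicate 1 (adjusted p = 0.0105) or with only the 6 libraries compared (adjusted p = 0.00831). With scaling it turned sign (0.195, adjusted p = 0.405).

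Cab39l encodes a scaffold protein of the MO25 family, which activates the kinase LKB1 and the kinases that phosphorylate cation-chloride cotransporters (chr14:59440972-59585764). It was at 137, 170 and 196 TPM at E12.5, at 874, 923 and 916 TPM at P0, at 1514, 1451 and 1454 TPM at P14 and at 1465, 1458 and 1453 TPM at A6m. P0 lay between an E12.5 level far below and a common level of P14 and A6m. It rose by 2.44 ± 0.10 on the log2 scale into P0 (adjusted p = 1.73e-08) and by 0.70 ± 0.10 into P14 (adjusted p = 0.000229). No further step was called into A6m (-0.01 ± 0.10, adjusted p = 0.956, and 0.039 with scaling). The protein-coding gene Cdadc1 overlaps Cab39l on the opposite strand and reached 45.8 TPM, and use of strand in counting is not stated.

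Its paralog Cab39, the widely expressed family member, was at 65.6 ± 6.16 TPM at E12.5, 60.4 ± 2.05 TPM at P0, 51.3 TPM at P14 and 58.1 TPM at A6m. Cab39 was not called between A6m and E12.5 (-0.17 in log2 units, adjusted p = 0.078), though with scaling it rose (0.67, adjusted p = 7.82e-07). The ratio of Cab39l to Cab39 within a library does not depend on a scaling factor of that library. Over the 4 ages in order it was 2.54, 14.99, 28.7 and 25.1, and it differed between ages (exact permutation test, p = 6.49e-05, and 9.74e-05 adjusted over the 3 ratios). Cab39l thus went from 2.54 times its paralog at E12.5 to 25.1 times at A6m. Values per gene do not tell its starts apart, and a link to their CG content was not tested.

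**Figure D3:**
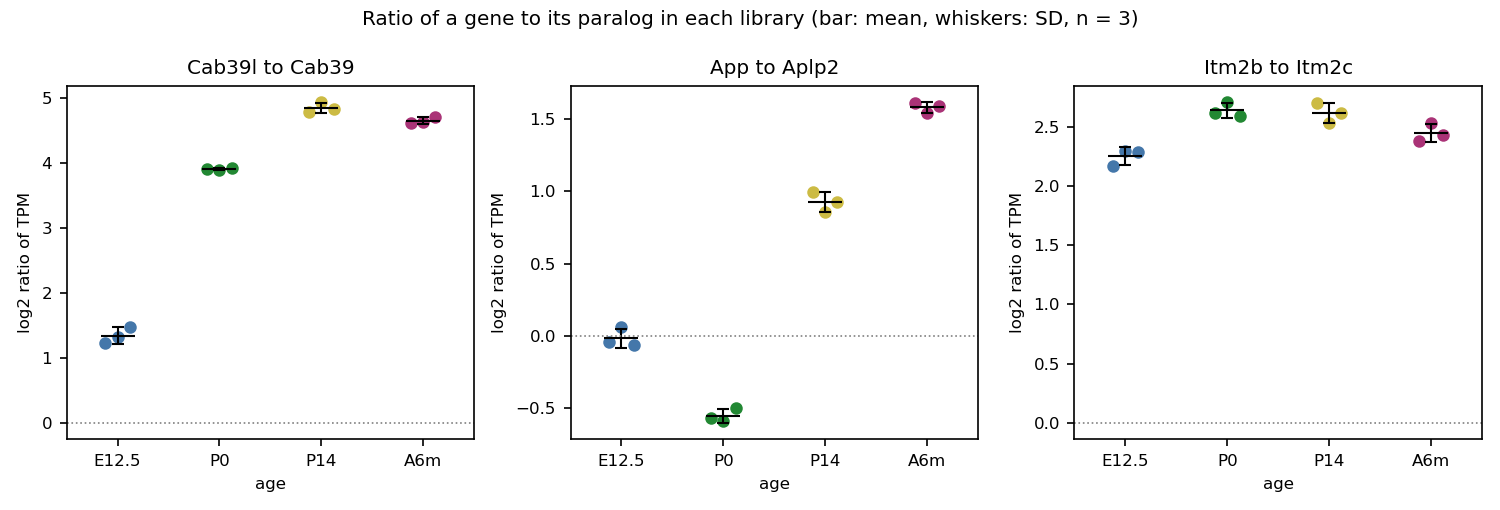
Log2 ratio of TPM within each library (vertical axis, a separate scale per panel) for Cab39l to Cab39, App to Aplp2 and Itm2b to Itm2c at the 4 ages, with points for libraries, bars for means and whiskers for SD. The first ratio rises from a mean of 1.34 to 4.65, the App ratio falls to -0.55 at P0 before it reaches 1.58, and the third stays between 2.16 and 2.71 in every library.

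The order of the 10 genes by mean TPM changed with age. At E12.5 Itm2b stood first, clear of the next, and App, Cst3 and Calml4 followed with overlapping libraries. Cab39l and Clu came next, also overlapping, then 1500015O10Rik and Sostdc1, which overlapped, and Ptgds and Tmem72 stood apart at the bottom. At P0 1500015O10Rik and Clu led and overlapped, ahead of Cab39l. Ptgds and Sostdc1 then overlapped, as did Itm2b and Calml4, and App had dropped to the place before Tmem72. At P14 Clu led alone, 1500015O10Rik and Cab39l overlapped behind it, and App, Ptgds and Cst3 overlapped in the middle. At A6m Clu led Cab39l, App, 1500015O10Rik and Ptgds overlapped in turn, and Cst3, Sostdc1, Itm2b, Calml4 and Tmem72 followed without overlap.

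Relative to Ttr in the same library, a ratio that one scaling factor per library leaves as it is, the genes separated into those that kept pace with it and those that did not. The mean log2 ratio of 1500015O10Rik to Ttr was -7.26 ± 0.22 (SD, n = 3), -7.01, -6.76 and -7.00 over the 4 ages in order, and that of Sostdc1 was -7.51 ± 0.16, -7.63, -7.60 and -7.90. Both stayed within a range smaller than 1 log2 unit while Ttr itself rose 9.19-fold into P0. The means of Clu (-6.55 ± 0.31, -7.02, -6.55 and -6.08) and Cab39l (-6.49 ± 0.22, -7.29, -6.78 and -6.60) also stayed within 1 log2 unit, with a dip at P0. By A6m Cab39l was back near its E12.5 ratio, and Clu stood above its own.

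The other genes moved away from Ttr. Itm2b went from -5.44 ± 0.33 at E12.5 to -8.00 at P0 and -8.06 at A6m, Cst3 from -5.82 ± 0.42 to -7.90 and -7.35, and Calml4 from -5.88 ± 0.14 to -8.01 and -8.60. These genes lost ground to Ttr before birth. App went from -5.75 ± 0.34 to -8.85 at P0 and back to -6.99 at A6m. Ptgds and Tmem72 gained on Ttr before birth, from -9.55 ± 0.42 to -7.62 and from -11.9 ± 0.48 to -9.99. These ratios are given as a description, without a test.

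**Figure D4:**
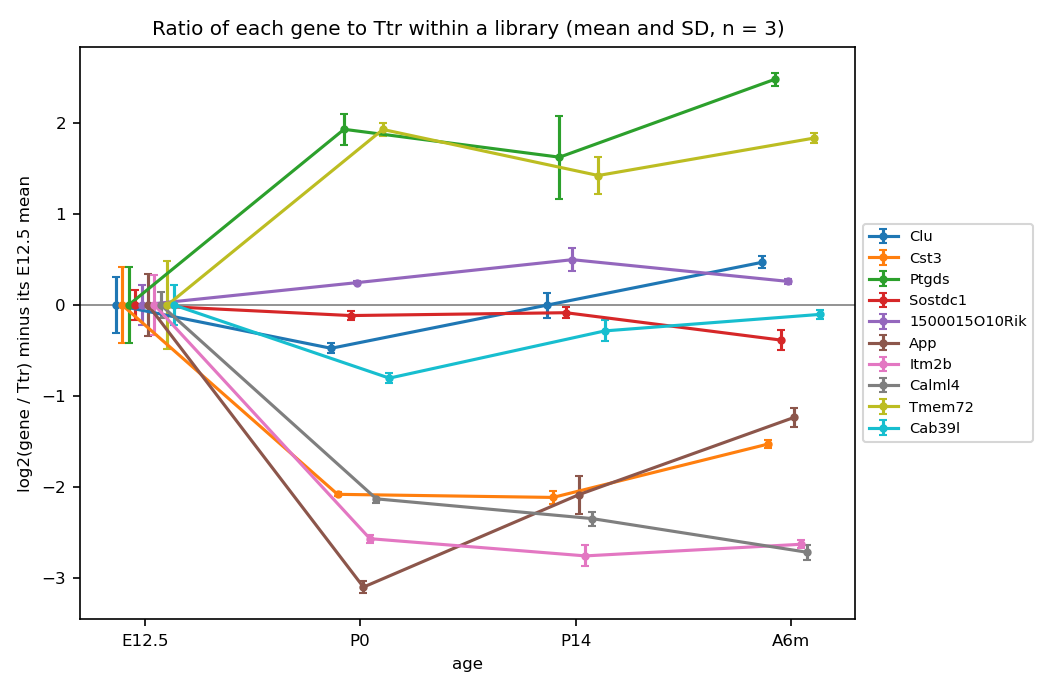
Mean log2 ratio of each gene to Ttr within a library, minus its E12.5 mean (vertical axis, log2 units), at the 4 ages (horizontal axis), with whiskers for SD over 3 libraries. 1500015O10Rik and Sostdc1 remain near 0, Ptgds and Tmem72 lie above it, and Cst3, App, Itm2b and Calml4 lie below it at every later age.

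The genes most like each of the 10 in course were sought among 5418 named genes averaging 20 TPM or more, by the root mean square difference of centred log2(TPM + 1) over the 12 libraries, where smaller means more alike. For 1500015O10Rik the closest was Ttr (0.20), followed by the sulfate transporter gene Slc13a4 (0.27). For Clu it was Pfkp, a phosphofructokinase (0.12), and for Cab39l the zinc transporter gene Slc39a12 (0.10), and Chchd10 came second for both. Sostdc1 was closest to Cntn1 (0.15) and Col8a1 (0.15), Cst3 to the heme transporter gene Slc48a1 (0.073), App to the fatty acid desaturase gene Fads1 (0.14), and Itm2b to Erlec1 (0.062). Calml4 was closest to 2 lysosomal genes, Man2b1 (0.14) and Lgmn (0.15). For Ptgds and Tmem72 the closest genes were further away, at 0.36 for Mt3, a metallothionein, and Ptgds, and at 0.29 for Slco1a4 and Tmem72. The measure is not scaled, so it grows with the size of a change and with the spread between libraries. Ptgds and Tmem72 had the largest log2 differences of the 10 genes into P0. Among the 10 themselves the closest pair was Clu and Cab39l (0.21).

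Genes that act with App and Itm2b did not move as one group. Of 21 listed homologs and proteases, all tested, 6 rose and 10 fell from E12.5 to A6m, with a median log2 difference of -0.31. Over all tested genes 15.2% were called higher and 62% lower in this comparison (median -0.71). With scaling 11 rose and 7 fell (median 0.32), against 35.4% and 35.8% of all genes. The largest changes were falls of Mme and Ece1, whose products can degrade amyloid. Mme, encoding neprilysin, fell from 111 ± 10.4 to 2.20 TPM (-5.14 in log2 units, adjusted p = 1.77e-10). Ece1, an endothelin-converting enzyme, fell from 41.4 ± 5.13 to 2.99 TPM (-3.49, adjusted p = 2.66e-07). Ide, another amyloid-degrading protease, did not fall with them. It was at 62.4, 70.4 and 67.2 TPM at E12.5 and at 69.0, 68.9 and 65.0 TPM at A6m. Itm2a, a homolog of Itm2b, fell from 160.3 ± 17.2 to 31.4 TPM (-2.31, adjusted p = 2.81e-09). The falls of Mme, Ece1 and Itm2a held with scaling, at -4.40, -2.74 and -1.47. The part of cell composition in them was not tested.

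Of 7 receptors that bind clusterin or other apolipoproteins, 3 rose and 3 fell over the same span, and 4 and 3 with scaling (medians -0.21 and 0.63), against the same shares of all genes. The megalin gene Lrp2 fell from 13.7 ± 0.796 to 0.410 TPM (-3.38 in log2 units, adjusted p = 5.38e-10). Of 21 genes for prostaglandin synthesis, transport and receptors, 14 passed the filter, and neither prostaglandin D2 receptor gene (Ptgdr and Ptgdr2) was among them. Of the 14, 3 rose and 11 fell from E12.5 to A6m, where 62% of all genes were called lower. With scaling 3 rose and 8 fell (medians -1.16 and -0.58), against 35.8% of all genes called lower. Hpgds, the hematopoietic form of the same enzyme activity, fell from 17.2 ± 2.73 to 0.916 TPM (-3.24, adjusted p = 9.59e-09), and Hpgd, which breaks prostaglandins down, from 184 ± 43.7 to 13.0 TPM (-3.72, adjusted p = 4.54e-09). Hpgds is also made by macrophages, whose 10 markers summed to 288 to 355 TPM at E12.5 and 52.9 to 78.7 TPM at A6m, and the part of these cells was not tested.

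Of 15 other cystatins and cysteine cathepsins, the proteases that cystatin C inhibits, 11 were tested. Into P0 8 rose and 0 fell (median 0.73), against 18.6% and 43.7% of all genes, and 11 rose with scaling, against 29%. Into P14 the scales went opposite ways, since 0 rose and 6 fell as deposited (5.33% and 53.5% of all genes) and 8 rose and 2 fell with scaling (22.7% and 19.8%). From P14 to A6m 2 rose and 7 fell (median -0.38), against 8.78% and 12.1% of all genes, and 3 and 7 with scaling, against 15.2% and 14%. Ctsf rose from 14.01 ± 1.63 at E12.5 to 44.4 ± 1.06 TPM at P0 (1.60 in log2 units, adjusted p = 4.42e-08), and Ctsh went from 98.6 ± 7.12 TPM at P0 to 25.0 TPM at A6m. Of 6 other lipocalin genes, the family of Ptgds, 4 were tested. Of these, 2 rose and 0 fell into P0 (median 0.53), against 18.6% and 43.7% of all genes. From P0 to P14 0 rose and 3 fell (median -1.15), against 5.33% and 53.5%, or 0 and 2 with scaling, against 22.7% and 19.8%. Between E12.5 and A6m 0 rose and 1 fell, against 15.2% and 62%, or 1 and 0 with scaling, against 35.4% and 35.8%. Of 20 other secreted BMP and Wnt antagonists, 19 were tested, and 3 rose and 14 fell from E12.5 to A6m, or 4 and 13 with scaling (medians -1.76 and -1.30). Of all genes, 62% were called lower there, and 35.8% with scaling. Dkk2 fell from 51.8 ± 10.01 to 0.0966 TPM (-5.58, adjusted p = 1.43e-10), Frzb from 24.2 ± 0.364 to 0.683 TPM (-3.91, adjusted p = 9.99e-11) and Fstl1 from 392 ± 49.0 to 12.6 TPM (-4.87, adjusted p = 2.94e-10).

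Of 7 genes for binding partners of Sostdc1, 5 rose and 2 fell into P0 (median 0.34), against 18.6% and 43.7% of all genes. From P0 to P14 1 rose and 5 fell, against 5.33% and 53.5%, or 2 and 3 with scaling, against 22.7% and 19.8%. Between E12.5 and A6m 3 rose and 4 fell, against 15.2% and 62%, or 6 and 1 with scaling, against 35.4% and 35.8%. The ligand gene Bmp6 rose from 23.1 ± 0.441 to 56.5 ± 2.09 TPM (1.25 in log2 units, adjusted p = 2.63e-08) and the Wnt coreceptor gene Lrp6 from 38.7 ± 4.44 to 64.9 ± 1.44 TPM (0.74, adjusted p = 5.08e-05), while Lrp4 fell from 7.51 ± 0.761 to 3.21 ± 0.324 TPM (-1.01, adjusted p = 2.98e-05). Of 13 calmodulins and genes of the microvillar adhesion complex, only 6 passed the filter. Myo7b, Ush1c, Anks4b and Cdhr2, which belong to the complex that Calml4 joins in other epithelia, were not among them. Cdhr5, another gene of that complex, passed at a low level. It was at 0.0355, 0.328 and 0.690 TPM at E12.5, at 2.40, 2.73 and 2.69 TPM at P0 and at 0.513, 0.473 and 0.294 TPM at A6m. Of the 6, 0 rose and 5 fell from E12.5 to A6m, where 62% of all genes were called lower, and 1 rose and 4 fell with scaling, where 35.8% were (medians -1.18 and -0.33). Calm2 fell from 969 ± 71.6 to 395 TPM (-1.29, adjusted p = 1.34e-08).

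Of 16 partners of Cab39 proteins and genes of chloride cotransport, 6 rose and 5 fell into P0, against 18.6% and 43.7% of all genes, and 9 and 3 with scaling, against 29% and 31% (medians -0.08 and 0.19). Into P14 0 rose and 11 fell, against 5.33% and 53.5% of all genes, or 5 and 5 with scaling, against 22.7% and 19.8%. Between E12.5 and A6m 4 rose and 8 fell, against 15.2% and 62%, or 10 and 3 with scaling, against 35.4% and 35.8%. Stk39, encoding the kinase SPAK that MO25 proteins activate, rose from 99.2 ± 22.6 to 394 ± 15.8 TPM (2.01 in log2 units, adjusted p = 4.13e-07) and stood at 473 TPM at A6m. The potassium-chloride cotransporter gene Slc12a4 rose from 40.8 ± 0.757 to 90.2 ± 3.84 TPM (1.13, adjusted p = 1.39e-06). Wnk3, which acts upstream of SPAK, fell from 11.2 ± 1.53 to 2.85 ± 0.0757 TPM (-1.66, adjusted p = 7.99e-07).

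Most markers of the epithelium and some markers of other cells moved with the 10 genes into P0. In this comparison 18.6% of all genes were called higher and 43.7% lower. Of 21 epithelial markers, 18 rose and 1 fell into P0 (median 1.28), and their summed TPM, most of it Ttr, went from 13935 to 25589 at E12.5 to 151735 to 153407 at P0. Between P0 and P14 7 rose and 8 fell, against 5.33% and 53.5% of all genes, and 11 and 3 with scaling, against 22.7% and 19.8%. Of 6 astrocyte markers 4 rose and 2 fell into P0 (median 1.69), and their sum was 52.5 to 86.6 TPM at E12.5 and 53.7 to 101 TPM at P0. Mean Aldh1l1 went from 2.34 up to 17.4 TPM, Slc1a3 from 59.3 down to 29.2 TPM and Slc1a2 from 10.7 down to 4.96 TPM. In P0 replicates 1, 2 and 3 Gfap was at 13.6, 2.63 and 4.04 TPM and Aqp4 at 24.4, 4.41 and 6.24 TPM. Fibroblast and meninges markers split evenly, as given beside Ptgds. Of 10 macrophage markers 0 rose and 6 fell, or 5 with scaling, where 31% of all genes were called lower. Of 8 endothelial markers 7 fell, and their sum was 361 to 402 TPM at E12.5 and 22.4 to 35.9 TPM at A6m. Of 9 erythroid markers 1 rose and 8 fell, from sums of 53063 to 59350 TPM at E12.5 to 6655 to 13503 TPM at P0. Multiciliated and ependymal markers went against the 10 genes: of 8, 0 rose and 7 fell into P0, or 0 and 5 with scaling. Their sum was 584 to 714 TPM at E12.5 and 271 to 280 TPM at P0. Of 6 mural markers 1 rose and 3 fell, or 2 and 2 with scaling. Of 8 tested neural markers 1 rose and 2 fell on both scales. The fibroblast marker Dpt was listed at 0 in 7 libraries and the ependymal marker Tmem212 in 4, and every other marker of these lists in at most 1. The part of cell composition in the rises of the 10 genes was not tested.

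**Figure D5:**
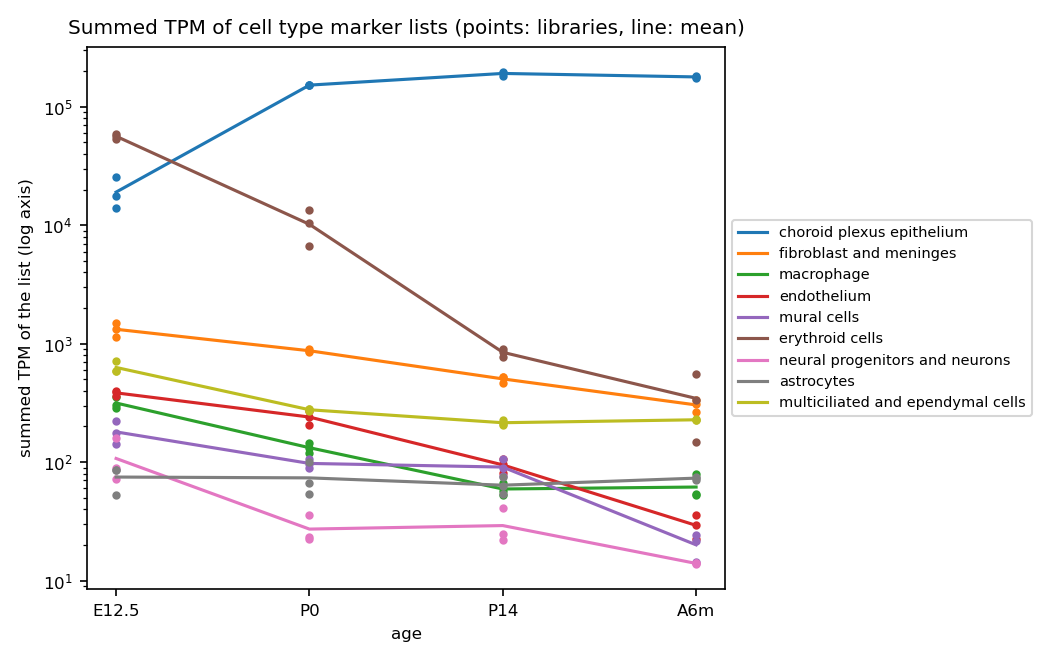
Summed TPM of 9 marker lists (vertical log axis) at the 4 ages, with points for libraries and lines for means. The epithelial sum rises about as Ttr does into P0 and stays high, and the sums of fibroblasts, endothelium, macrophages and erythroid cells fall from E12.5 to P14.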

How the data were processed

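Values were taken from the deposited table of TPM, which the authors made with kallisto on GRCm38, per the submitters' processing notes. The version, the gene annotation and how transcripts were summed per gene are not given in the sources used here. Per the labels' protocols, tissue went into Trizol and libraries were made with a Kapa mRNA kit. Of its columns, 12 were used and 7 were not. Genes with a TPM of at least 1 in at least 3 libraries (17422) were tested as log2(TPM + 1) with limma 3.58.1 in R 4.3.3 (eBayes with trend), with a mean per age and 8 residual degrees of freedom. All adjusted p-values of genes come from this fit, with Benjamini-Hochberg adjustment over all tested genes. The labels speak of independent specimens per datapoint and do not say how many animals each specimen held. The p-values weigh differences between age means against the spread between libraries of the same age, pooled over the 4 ages. How much of that spread is technical is not known.

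The 10 genes, the partner and marker lists and the tests were chosen with earlier results of these data known. Named beside the 10 genes are up to 3 genes per list with the largest absolute difference between A6m and E12.5 among those called, the paralogs, Ttr, Aqp1 and the 2 genes closest in course. A few more list members are named, and these were picked after their values were seen. Alternatives were a pseudocount of 0.1 or 5, tests without a filter or above a mean TPM of 5, 4 other scalings, only the 6 libraries compared, the replicate number as a block and each library left out. Depth is unknown, so no counting interval or count model was used. Coordinates are from GENCODE M21 (GRCm38). Python 3.11.15 with matplotlib 3.10.9 drew the figures.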

Additional observations from a re-analysis of the deposited data

How the results depend on the processing

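The 9 rises into P0 and the 10 between E12.5 and A6m kept direction under every alternative, and the 9 kept their calls as well. From P0 to P14, signs turned to positive for Ptgds, Itm2b and Calml4 (0.40, 0.51 and 0.48 with median-of-ratios scaling, 0.086, 0.20 and 0.18 once the 10 most abundant genes were removed, 0.066, 0.18 and 0.16 without mitochondrially encoded genes, 0.16, 0.46 and 0.44 with quantile normalization) and for Tmem72 (0.195 with median-of-ratios scaling). Cab39l between A6m and P14 turned to 0.039 with that scaling and 0.025 without mitochondrially encoded genes.

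From P0 to P14 the genes called higher of the 10 numbered 3 with no filter and 8 with median-of-ratios scaling or quantile normalization, and 1 was called lower with only the 6 libraries compared. From P14 to A6m those called lower numbered 0 with no filter or without mitochondrially encoded genes, 2 above a mean TPM of 5 or with median-of-ratios scaling, and 3 with quantile normalization, with only the 6 libraries compared or without the 10 most abundant genes. Over all genes, calls with median-of-ratios scaling were 5046 higher into P0, 3956 higher and 3453 lower into P14, 2643 higher into A6m, and 6167 higher and 6231 lower between A6m and E12.5. Quantile normalization gave 5180, 3525 and 3404, and 6266 and 6238. Without the 10 most abundant genes 4959, 1702 and 4299 were higher into P0, into P14 and between A6m and E12.5, and without mitochondrially encoded genes 1416 were higher into P14. The causes were not tested.

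With each library left out in turn, the 10 genes called from P0 to P14 numbered 3 to 6 higher and 0 to 1 lower, and from P14 to A6m 0 to 3 lower. The log2 difference ranged from -0.41 to 0.085 for Ptgds and from -0.031 to 0.039 for Itm2b from P0 to P14, and from -0.024 to 0.0058 for Cab39l from P14 to A6m. Replicate numbers gave no sign of pairing the samples. For this, the mean of each age was subtracted from each gene, and the remainders were correlated between libraries of different ages. Same-numbered libraries gave correlations between -0.0778 and 0.108, and differently numbered libraries between -0.0707 and 0.0940. With the replicate number as a block, the difference of Clu between A6m and P14 stayed at 0.27 and lost its call (adjusted p = 0.065), and no other call of the 10 genes changed.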
